A study of Rattus norvegicus with 9 samples.

Results

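The SLC25 genes encode the carrier family of the inner mitochondrial membrane, and their transcripts were followed here in rat hippocampus. A gene ID belonged to the family when its name was Slc25a followed by a number, or was Ucp1, Ucp2 or Ucp3, and 50 of the 30562 gene IDs in the deposited table met this rule. No gene ID carried the name Slc25a3, Slc25a16 or Slc25a34, so these genes were not analysed here. Whether IDs without a name hold them was not tested, and shares of the family are shares of the 50 IDs only. The data were RNA sequencing of poly(A) RNA in 9 libraries, 3 per group. ChryM libraries came from male Sprague-Dawley rats, 6 to 8 weeks old, given chrysophanol, a plant anthraquinone, by oral gavage for 14 days. The series title places these among diabetic, stressed rats, and so under the Model protocol of high-fat diet for 4 weeks, 50 mg/kg streptozotocin, a fasting glucose of at least 16.7 mmol/L and 5 weeks of stress. Model libraries came from rats of the same strain, sex and age that had a high-fat diet for 4 weeks, 50 mg/kg streptozotocin, which kills pancreatic beta cells, and then 5 weeks of varied mild stressors. Only injected animals whose fasting glucose was at least 16.7 mmol/L were kept. Ctrl libraries came from normal control rats, 6 to 8 weeks old as well, for which the labels name no diet, injection, stress or compound. The chrysophanol dose is not given in the labels, and ChryM and Model differ by the gavage as well as by the compound it carried. The labels do not tie libraries to separate animals, so every p-value reflects library-to-library spread alone, and that spread may be technical.

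Inner-membrane carriers pass nucleotides, phosphate, amino acids, carboxylates and cofactors between cytosol and matrix, each through a bundle of membrane helices that opens to one side at a time. They are made in the cytosol and inserted by a dedicated import machinery. In brain the family supplies ATP to neurons, feeds glutamate metabolism and carries the malate-aspartate shuttle. A few members sit elsewhere: Slc25a17 in the peroxisome and Slc25a46 in the outer mitochondrial membrane.

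The upstream sequences of 2 members are shown, and no result on levels or changes rests on these sequences. Slc25a17 was a gene that differed between groups, and Slc25a4 had the highest level of the 50 members. For Slc25a46, which also differed, no upstream sequence was available. Each run is the 250 bases before the gene start, from RefSeq on GRCr8, read on the strand of the gene. For Slc25a17 this is chr7:114767164-114767413 on the minus strand, and for Slc25a4 it is chr16:52805271-52805520 on the plus strand. Capitals mark a match to the SP1 motif GGGCGG, here on the opposite strand, in Slc25a17 and to the ETS-type GABPA motif CCGGAAG in Slc25a4.
Slc25a17: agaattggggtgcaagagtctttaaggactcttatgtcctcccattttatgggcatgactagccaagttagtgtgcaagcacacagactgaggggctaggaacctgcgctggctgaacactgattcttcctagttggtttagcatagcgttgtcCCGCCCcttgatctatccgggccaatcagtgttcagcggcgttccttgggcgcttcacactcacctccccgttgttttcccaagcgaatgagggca
Slc25a4: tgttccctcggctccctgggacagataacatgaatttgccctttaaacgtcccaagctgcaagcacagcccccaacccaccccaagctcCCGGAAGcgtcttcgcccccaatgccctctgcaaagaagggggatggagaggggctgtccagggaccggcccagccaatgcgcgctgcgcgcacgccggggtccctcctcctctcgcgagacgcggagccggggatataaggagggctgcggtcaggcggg
Of the 41 members with such an upstream sequence, 48.8% held GGGCGG on either strand, against 32.4% of all 27457 sequences of that length. CCGGAAG was in 12.2% of the members and 7.74% of all sequences. AAGATGGCG, a YY1 motif, was in 2.44% and 0.736%. The NRF1 motif, the ERR motif TCAAGGTCA and the direct repeat bound by PPAR dimers matched 0 members, against 4.17%, 0.368% and 0.0546% of all sequences. These are letter matches, and factor binding was not measured.

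Depth was low. The libraries held 631119 to 866048 counts in all and 589 to 893 counts for the whole family. Of the 50 members, 18 passed the count filter and were tested, 23 had 1 to 75 counts over all libraries and were not tested, and 9 were at 0 in every library. The 9 were Slc25a2, Slc25a36l1, Slc25a41, Slc25a43, Slc25a52, Slc25a54, Slc25a6, Ucp1 and Ucp3. In a single library, a count of 0 allows up to 3 counts, or 3.46 to 4.75 CPM (counts scaled to a common library total) depending on the library. For a gene at 0 in all 9 libraries, the mean level allowed over them is lower than that. The library kit keeps strand, but whether reads were counted by strand is not given in the sources used here. Mt-nd6, the only protein gene encoded on the light strand of mitochondrial DNA, averaged 42036 FPKM (counts scaled for gene length and library total), against 1659 to 7417 FPKM for the other 12 protein genes. Whether counts under a gene's name are reads of its mRNA or of the opposite strand therefore cannot be told apart. Of the 18 tested members, 8 overlap another gene, 5 of them one on the opposite strand. For Slc25a44 and Slc25a46 the relative strand of the overlapping genes was not known.

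Levels of different members are compared as FPKM. The ADP/ATP exchangers, which move ATP out of the matrix, held 52.8% of the summed FPKM of the 50 members. Slc25a4 (ENSRNOG00000010830), the exchanger of heart, muscle and brain, averaged 218.5 FPKM over the 9 libraries. Its close relative Slc25a5 (ENSRNOG00000039980) averaged 40.2 FPKM, and Slc25a31, the testis form, was not tested. Near-identical copies can share reads, and how the counting split them is not given. Between them stood Slc25a23 (ENSRNOG00000047781), a calcium-regulated ATP-Mg/phosphate carrier, at 59.9 FPKM. These 3 genes made up 64.9% of the summed FPKM of the 50 members, and the untested members 7.38%. Slc25a3, Slc25a16 and Slc25a34 are not in that sum under their names.

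The next genes were the glutamate carrier Slc25a22 (ENSRNOG00000049944) at 19.3 FPKM, the oxoglutarate/malate carrier Slc25a11 (ENSRNOG00000003815) at 15.8 FPKM, and the iron importer Slc25a28 (ENSRNOG00000016751) at 14.3 FPKM. Ucp2 (ENSRNOG00000017854), an uncoupling protein gene, stood at 13.5 FPKM and Slc25a17 (ENSRNOG00000018920) at 12.5 FPKM. The other 10 tested members lay between 1.59 FPKM for Slc25a51, an NAD carrier gene, and 9.18 FPKM for the second glutamate carrier gene Slc25a18. Of the 17 neighbouring pairs in this order, the ranges over 9 libraries were apart in 2, Slc25a4 over Slc25a23 and Slc25a23 over Slc25a5. Within groups the variance of a tested member was 0.107 to 2.45 times its counting variance, with a median of 0.866.

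**Figure D1:**
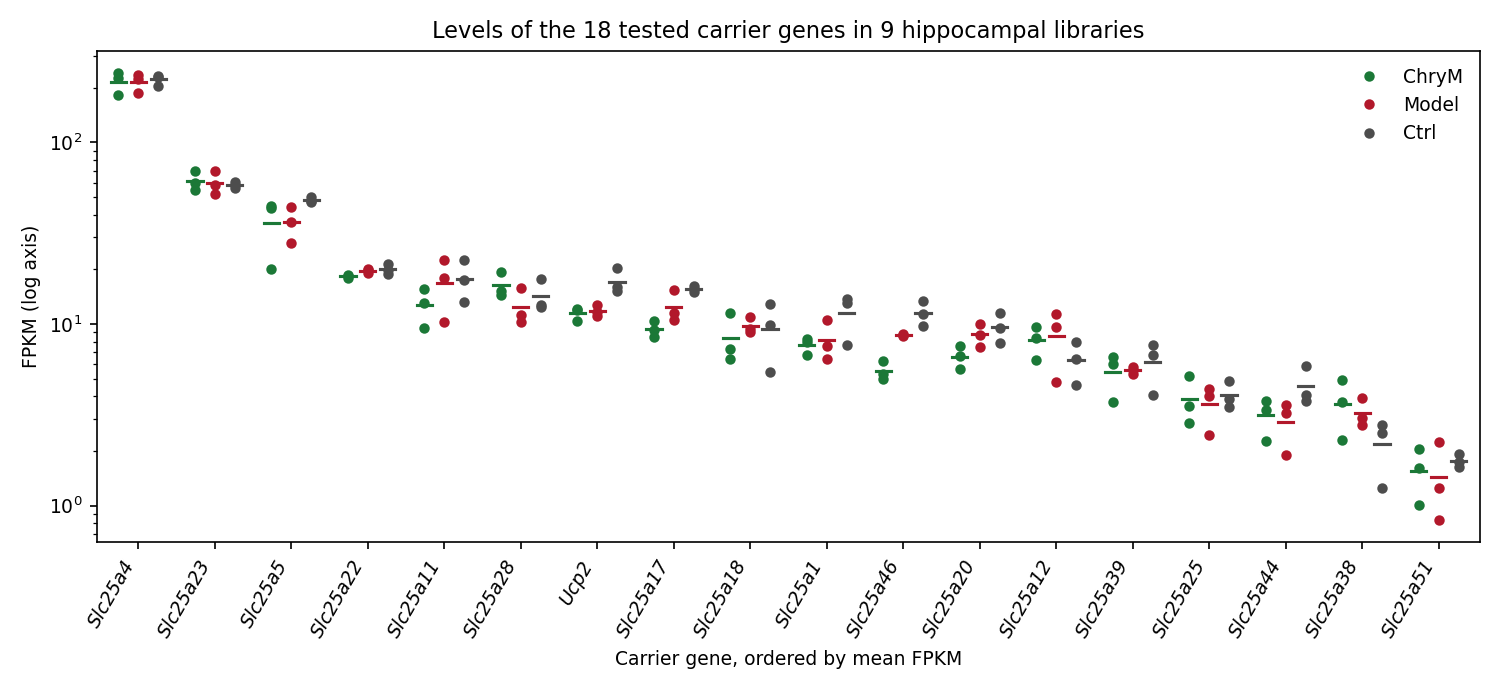
FPKM on a log axis of the 18 tested carrier genes, ordered by mean, with 1 point per library and a line at each group's mean (3 libraries each of ChryM, Model and Ctrl). Slc25a4 stands above all other members in every library, and most other neighbours overlap.

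Paralogues were used unequally. Slc25a12, the calcium-regulated aspartate/glutamate carrier of brain known as aralar, had 175 counts over all libraries, against 28 for Slc25a13, the liver form. Slc25a28 had 160 and its mitoferrin relative Slc25a37 had 3. Slc25a39, a glutathione carrier gene, had 96 and Slc25a40 had 8. The ATP-Mg/phosphate carriers Slc25a23, Slc25a25 and Slc25a24 had 1415, 137 and 13. Slc25a5 made up 13.9 ± 3.47% of the summed FPKM of Slc25a4 and Slc25a5 in ChryM, 14.4 ± 2.85% in Model and 17.8 ± 1.44% in Ctrl (SD, n = 3 each). Slc25a18 made up 31.0 ± 6.41%, 33.2 ± 2.84% and 31.1 ± 8.55% of the pair with Slc25a22 in ChryM, Model and Ctrl. The Slc25a5 share was higher in every Ctrl library than in any ChryM or Model library, the Slc25a18 share overlapped between all groups, and no test was run on shares.

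The study's design sets ChryM against Model for what goes with chrysophanol, Model against Ctrl for what goes with diabetes and stress, and ChryM against Ctrl for where the treated rats stood relative to healthy ones. Levels of a single gene across libraries are CPM scaled by the trimmed mean of M-values (TMM). Tests were edgeR's quasi-likelihood test on the counts of all 7073 genes that passed the filter, with Benjamini-Hochberg adjustment over all of them, and a gene was called at an adjusted p under 0.05. P-values are two-sided, and log2 fold changes are given with 95% intervals and the larger of the test's and the counting standard error (SE).

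Most of the family did not pass the test in any comparison. In ChryM against Model, 0 of 18 members were called in either direction, against 8.27% of all genes tested (3.86% higher and 4.41% lower). An unadjusted p under 0.05 was reached by 2 members, or 11.1%, against 19.3% of all genes. In Model against Ctrl, 0 of 18 were called, against 12.4% of all genes (7.04% higher and 5.39% lower), while 1 reached an unadjusted p under 0.05, or 5.56%, against 23.5%. In ChryM against Ctrl, 2 of 18 were lower and 0 higher, against 8.96% and 9.83% of all genes (18.8% in either direction), and 3 had an unadjusted p under 0.05, or 16.7%, against 29.6%. DESeq2 called 0, 0 and 1 members in these comparisons, among the 5, 2 and 9 to which it gave an adjusted p. The share of members called lower in ChryM than in Ctrl, 11.1%, was close to that of all genes, so the count says nothing particular about carriers.

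Median log2 fold changes of the 18 members were -0.08 in ChryM against Model, -0.04 in Model against Ctrl and -0.12 in ChryM against Ctrl, beside 0.0015, -0.018 and -0.0096 over all genes tested. Groups did not overlap for 3, 4 and 6 members, or 16.7%, 22.2% and 33.3%, against 23.6%, 26.1% and 31.7% of all genes. ChryM against Ctrl and ChryM against Model share the ChryM libraries, and the 2 comparisons with Ctrl share the Ctrl libraries.

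**Figure D2:**
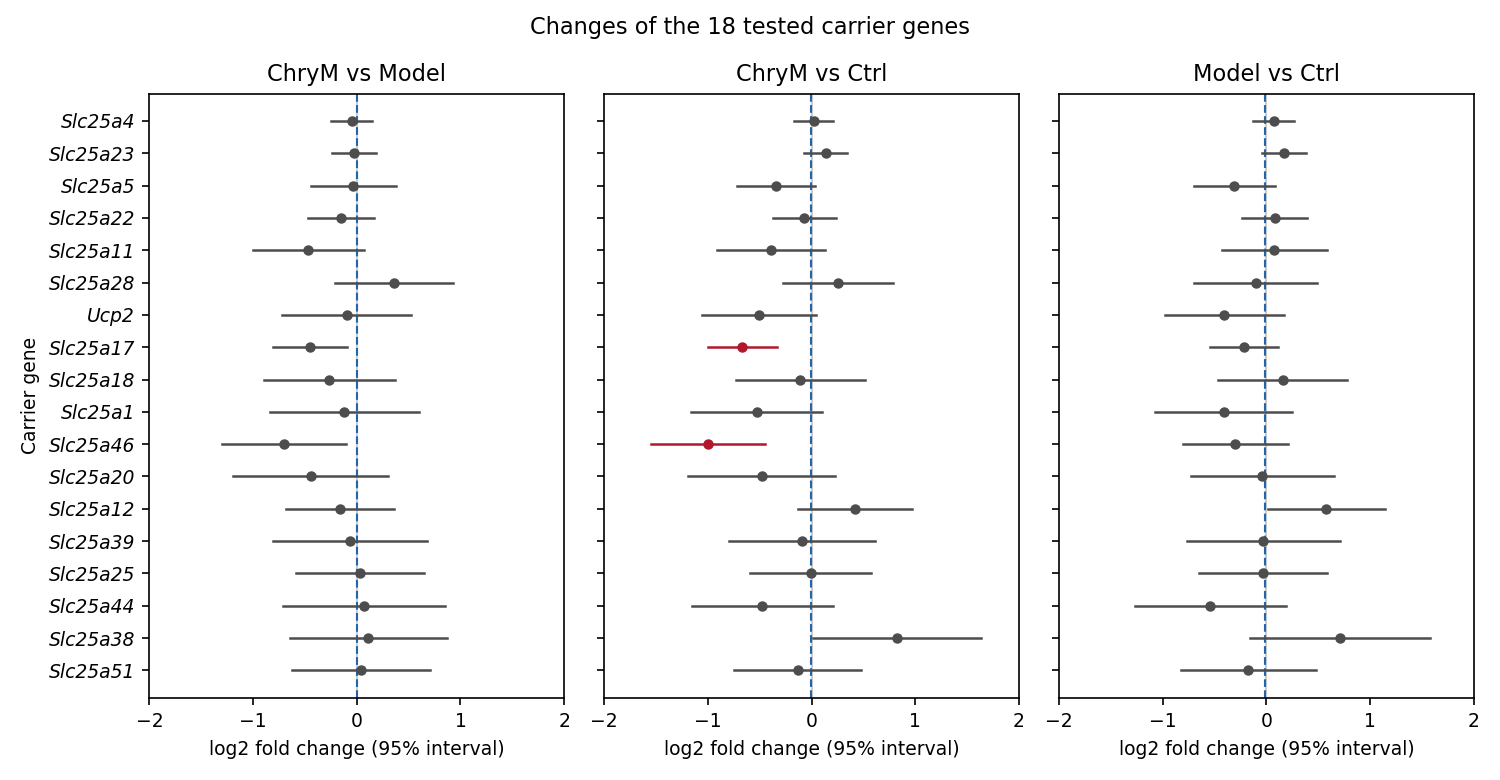
Log2 fold changes of the 18 tested carrier genes with 95% intervals, for ChryM vs Model, ChryM vs Ctrl and Model vs Ctrl. Dashed lines mark the median of all 7073 genes, and the genes called at an adjusted p under 0.05, Slc25a17 and Slc25a46 in ChryM vs Ctrl, are red.

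Slc25a17 encodes PMP34, a carrier of coenzyme A, FAD, NAD and adenine nucleotides in the peroxisomal membrane. It stood at 53.0, 58.3 and 49.8 CPM in ChryM, 91.3, 63.2 and 67.5 CPM in Model and 81.6, 86.8 and 89.1 CPM in Ctrl. Every ChryM library was below every library of the other groups, while Model spanned the range of Ctrl. The gene fell in ChryM, with 53.7 ± 4.30 CPM against 85.8 ± 3.83 CPM in Ctrl (SD, n = 3 each), a log2 fold change of -0.67 ± 0.17 (SE; interval -0.998 to -0.335; edgeR adjusted p = 0.00137). Against Model it differed by -0.45 ± 0.18 (edgeR adjusted p = 0.118), and Model against Ctrl by -0.22 ± 0.16 (edgeR adjusted p = 0.471), neither of them called. The call against Ctrl was kept in 19 of 19 alternative settings, with adjusted p of 0.000474 to 0.0445. The gene overlaps long noncoding RNA genes on both strands, LOC120093696 opposite and LOC134479943 on its own.

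Slc25a46 (ENSRNOG00000017091) encodes an outer-membrane member of the family that acts in mitochondrial fission, fusion and cristae upkeep, and its loss in people causes optic atrophy and neuropathy. It stood at 15.1, 18.7 and 16.6 CPM in ChryM, 27.7, 27.3 and 27.5 CPM in Model and 32.9, 38.6 and 29.7 CPM in Ctrl. The 3 groups did not overlap, with ChryM lowest and Ctrl highest. It fell to 16.8 ± 1.77 CPM in ChryM, against 33.7 ± 4.51 CPM in Ctrl, a log2 fold change of -1.002 ± 0.279 (interval -1.55 to -0.45; edgeR adjusted p = 0.00354). The summed counts behind these means were 40 in ChryM and 80 in Ctrl. Against Model the change was -0.70 ± 0.30 (edgeR adjusted p = 0.154), and Model against Ctrl gave -0.30 ± 0.26 (edgeR adjusted p = 0.534).

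The Slc25a46 call was kept in 18 of 19 alternatives and lost with DESeq2, at -0.98 (adjusted p = 0.0707), and adjusted p ranged from 0.00182 to 0.0707. Slc25a46 overlaps the chromatin gene Sap130 and a long noncoding RNA gene, with relative strands not known. Sap130 was at 16.6 ± 2.44 CPM in ChryM, 21.1 ± 4.35 CPM in Model and 14.3 ± 2.36 CPM in Ctrl, and was not called in any comparison (edgeR adjusted p = 0.316 to 0.756). On the log2 scale Sap130 differed by 0.19 ± 0.34 in ChryM against Ctrl, a difference smaller than its SE. It differed by -0.37 ± 0.32 in ChryM against Model and by 0.56 ± 0.33 in Model against Ctrl. Its sign was that of Slc25a46 in ChryM against Model and the opposite in the comparisons with Ctrl. Whether Sap130 reads enter the Slc25a46 values was not tested.

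**Figure D3:**
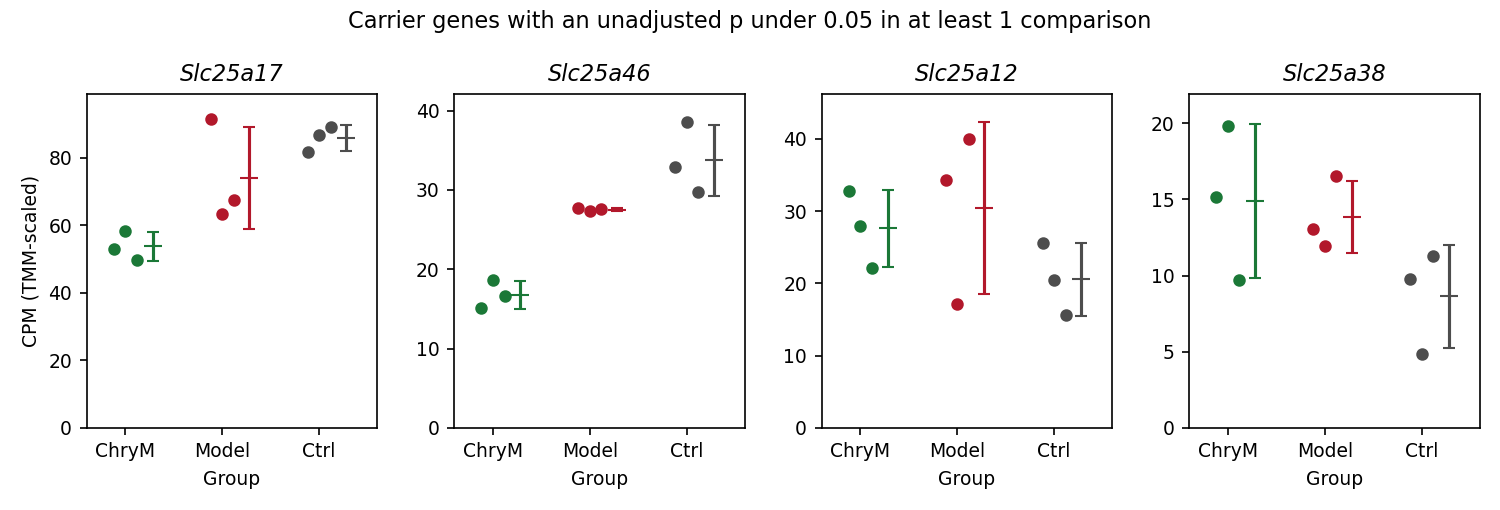
TMM-scaled CPM by library of the 4 carrier genes with an unadjusted p under 0.05 in at least 1 comparison, with mean and SD (3 libraries per group). ChryM lies below both other groups for Slc25a17 and Slc25a46, and the groups overlap more for Slc25a12 and Slc25a38.

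Of the energy carriers, Slc25a4 and Slc25a23 had the narrowest intervals of change, and those of Slc25a5 and Slc25a25 were wider. Slc25a4 was at 305.1, 281.1 and 238.0 CPM in ChryM, 313.0, 249.4 and 291.9 CPM in Model and 276.5, 278.6 and 260.1 CPM in Ctrl. The groups overlapped, and the log2 intervals were -0.25 to 0.14 for ChryM against Model, -0.13 to 0.26 for Model against Ctrl and -0.17 to 0.21 for ChryM against Ctrl. Slc25a23 was at 245.9, 208.8 and 199.3 CPM in ChryM, 192.4, 217.0 and 254.7 CPM in Model and 188.8, 194.2 and 213.5 CPM in Ctrl. Its groups overlapped too, with log2 fold changes of -0.03 ± 0.11, 0.17 ± 0.11 and 0.14 ± 0.11 in the same order.

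Slc25a5 was at 58.0, 58.3 and 27.7 CPM in ChryM, 61.9, 51.3 and 38.6 CPM in Model and 59.7, 60.3 and 66.4 CPM in Ctrl. ChryM 3 and Model 3 were the low libraries, and ChryM lay below Ctrl without overlap but was not called (log2 fold change -0.34 ± 0.19, interval -0.72 to 0.03; edgeR adjusted p = 0.217). Without ChryM 3 that log2 fold change was -0.10, and over the alternatives it ranged from -0.51 to -0.10. Slc25a25, another ATP-Mg/phosphate carrier gene, had intervals of -0.59 to 0.65 for ChryM against Model, -0.65 to 0.58 for Model against Ctrl and -0.59 to 0.57 for ChryM against Ctrl. Ucp2, whose product is thought to limit mitochondrial superoxide, was at 20.2, 19.8 and 17.99 CPM in ChryM, 19.6, 20.5 and 22.0 CPM in Model and 24.4, 25.3 and 33.9 CPM in Ctrl. All ChryM and Model libraries were below all Ctrl libraries, at -0.51 ± 0.28 (edgeR adjusted p = 0.214) and -0.41 ± 0.29 (edgeR adjusted p = 0.427), and neither was called.

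The 5 tested amino acid carriers were not called in any comparison. Slc25a22, mutated in human epileptic encephalopathy, was at 78.2, 75.8 and 77.5 CPM in ChryM, 88.0, 87.1 and 82.6 CPM in Model and 85.3, 78.4 and 79.2 CPM in Ctrl. ChryM was below both other groups without overlap, by only -0.15 ± 0.16 against Model and -0.07 ± 0.15 against Ctrl, and its spread was under the counting error. It overlaps Cend1 on the same strand, a neuronal differentiation gene that was lower in ChryM than in Model (-0.42 ± 0.11; edgeR adjusted p = 0.0044) and than in Ctrl (-0.34 ± 0.11; edgeR adjusted p = 0.0149).

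A pair of further amino acid carriers is named because each had an unadjusted p under 0.05 in 1 comparison. Slc25a12 was at 32.8, 27.99 and 22.1 CPM in ChryM, 34.2, 17.1 and 39.9 CPM in Model and 25.6, 20.5 and 15.6 CPM in Ctrl, and the groups overlapped. Model against Ctrl gave a log2 fold change of 0.58 ± 0.28 (edgeR adjusted p = 0.191), and it was 0.32 without Model 3 and 0.84 without Model 2 (edgeR adjusted p = 0.673 and 0.0527). Slc25a38, a glycine importer for heme synthesis, was at 15.1, 19.8 and 9.69 CPM in ChryM, 13.0, 12.0 and 16.5 CPM in Model and 9.74, 4.82 and 11.3 CPM in Ctrl. Model lay above Ctrl without overlap and ChryM did not, and ChryM against Ctrl gave 0.82 ± 0.41 (edgeR adjusted p = 0.161). Slc25a44, a branched-chain amino acid carrier gene, was lower in Model than in Ctrl by -0.54 ± 0.37 without overlap (edgeR adjusted p = 0.395).

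The 3 carboxylate and acylcarnitine carriers were not called either. Slc25a11 was at 24.0, 27.99 and 17.99 CPM in ChryM, 19.6, 34.2 and 42.7 CPM in Model and 30.5, 22.9 and 41.0 CPM in Ctrl, with all groups overlapping. Against Ctrl, ChryM differed by -0.39 ± 0.26 for Slc25a11, by -0.53 ± 0.32 for the citrate carrier gene Slc25a1 and by -0.48 ± 0.36 for the carnitine/acylcarnitine carrier gene Slc25a20 (edgeR adjusted p = 0.328, 0.269 and 0.390). As library-total CPM summed over the 5 genes of this role, the range was 50.2 to 64.7 in ChryM, 54.5 to 76.3 in Model and 74.3 to 84.7 in Ctrl. Sums have no test, and here the ChryM libraries were all below the Ctrl libraries. Summed in the same way, ChryM also lay below Ctrl without overlap for the cofactor and nucleotide role (115.9 to 123.6 against 153.6 to 171.9 CPM), which holds Slc25a17, the uncoupling role (29.4 to 39.3 against 43.6 to 49.5 CPM) and the role of outer-membrane and unsettled members (18.4 to 24.2 against 38.5 to 47.1 CPM), which holds Slc25a46. Model also lay below Ctrl without overlap for the uncoupling role (30.3 to 41.2 CPM) and the outer-membrane and unsettled role (28.5 to 31.8 CPM). For the cofactor and nucleotide role Model overlapped Ctrl (112.5 to 163.5 CPM). These sums are not TMM-scaled, and no share of separated sums among other gene sets was computed. The sums of the ADP/ATP, ATP-Mg/phosphate, amino acid and iron roles overlapped between ChryM and Ctrl. The iron sum averaged 27.2 CPM in ChryM and 23.5 CPM in Ctrl. Slc25a28 was at 25.2, 31.5 and 24.9 CPM in ChryM, 17.9, 27.3 and 19.3 CPM in Model and 19.5, 27.7 and 21.2 CPM in Ctrl. Those groups overlapped as well.

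The summed FPKM of all 50 members was 500.5, 507.8 and 398.4 in ChryM, 495.8, 451.7 and 501.5 in Model and 526.4, 533.7 and 501.2 in Ctrl. ChryM 3 was the lowest library, and the groups overlapped. Means were 468.9 ± 61.2 in ChryM, 483.0 ± 27.3 in Model and 520.4 ± 17.0 in Ctrl, with no test. Without Slc25a4 and Slc25a23 the sum was 190.9 ± 29.9, 207.0 ± 1.91 and 239.3 ± 4.05 in ChryM, Model and Ctrl, and every ChryM and Model library lay below every Ctrl library. At TMM-scaled totals, a scaling added after seeing the data, the sum over all members was 469.1 ± 50.5, 502.8 ± 26.1 and 498.5 ± 2.31, and the Model mean was then not below that of Ctrl. Without ChryM 3 the log2 difference of the sum, -0.04 for ChryM against Model and -0.15 for ChryM against Ctrl with all libraries, was 0.06 and -0.05.

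**Figure D4:**
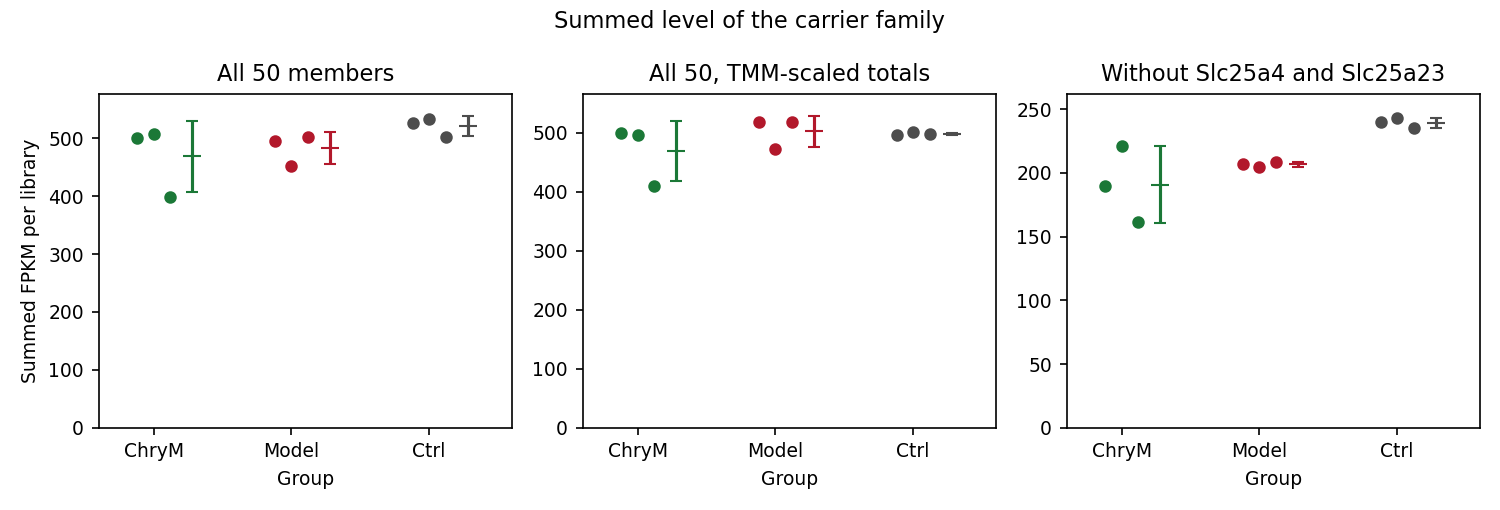
Summed FPKM per library with mean and SD for ChryM, Model and Ctrl (3 libraries each): all 50 members, all 50 at TMM-scaled totals, and without Slc25a4 and Slc25a23. The lower Model mean of the first panel is absent at TMM-scaled totals.

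Among the 23 members with counts that were not tested, 2 are singled out after their values were seen. Slc25a36, a pyrimidine nucleotide carrier gene, had 7, 1 and 5 counts in ChryM, 3, 4 and 4 in Model and 13, 9 and 9 in Ctrl. All ChryM and Model libraries were below all Ctrl libraries. The depth-scaled ratio to Ctrl was 0.400 in ChryM (exact 95% counting interval 0.192 to 0.787) and 0.402 in Model (0.182 to 0.821). Slc25a53, an orphan member, had 3, 1 and 2 counts in ChryM, 3, 3 and 1 in Model and 6, 5 and 6 in Ctrl, with ratios of 0.337 (0.109 to 0.895) and 0.466 (0.163 to 1.18). Slc25a27 also lay below Ctrl without overlap in ChryM (ratio 0.653, 0.296 to 1.39). In the other direction, Slc25a15 lay above Ctrl without overlap in Model, on 4 counts against 1 (ratio 4.53, 0.448 to 223). The share of all untested genes that lay apart was not computed. Such intervals cover counting error only, and edgeR called none of these genes when the count filter was dropped.

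Genes that work with carriers were read from lists in the same fit, and their counts stand beside the shares of all genes called: 9.83% higher and 8.96% lower in ChryM against Ctrl, 7.04% and 5.39% in Model against Ctrl, and 3.86% and 4.41% in ChryM against Model. Of 11 tested genes of the machinery that imports and inserts carriers, 1 was lower in ChryM than in Ctrl and 0 higher, 1 lower and 1 higher in Model than in Ctrl, and 0 changed in ChryM against Model, with medians of 0.24, -0.05 and 0.08. A single gene of 11 is near the share of all genes, so these counts are no result about the machinery. The lower gene in both was Tomm70, the outer-membrane receptor that docks newly made carriers. Tomm70 was at 80.8 ± 18.5 CPM in ChryM, 88.9 ± 8.11 CPM in Model and 136.9 ± 7.02 CPM in Ctrl, with log2 fold changes of -0.74 ± 0.14 for ChryM against Ctrl (edgeR adjusted p = 7.87e-06) and -0.62 ± 0.14 for Model against Ctrl (edgeR adjusted p = 0.000636). The gene higher in Model was Timm13, an intermembrane-space chaperone (0.37 ± 0.10; edgeR adjusted p = 0.00478). Of 14 tested genes of other mitochondrial transporters and channels, 0 were called in any comparison, with medians of -0.16, -0.08 and -0.05 in the same order.

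Of 19 tested enzymes of glutamate, citrate and ketone metabolism, 4 fell in ChryM against Ctrl, 1 in Model against Ctrl and 0 in ChryM against Model, 0 rose, and the medians were -0.16, -0.03 and -0.11. The shares of all genes lower were 8.96%, 5.39% and 4.41%, so the 1 of 19 in Model is near its background. Cs, citrate synthase, was at 48.2 ± 10.2 CPM in ChryM, 57.2 ± 8.83 CPM in Model and 85.0 ± 3.88 CPM in Ctrl, and was lower in both (-0.81 ± 0.17, edgeR adjusted p = 0.000115, and -0.58 ± 0.18, edgeR adjusted p = 0.0158). Also lower in ChryM were Acly, which splits exported citrate, at -0.73 ± 0.18 and the ketone enzyme gene Oxct1 at -0.73 ± 0.21 (edgeR adjusted p = 0.00102 and 0.00615). Of 5 tested shuttle enzymes, Gpd1, the cytosolic glycerol phosphate dehydrogenase, was higher in ChryM than in Model (0.50 ± 0.16; edgeR adjusted p = 0.0293) and than in Ctrl (0.76 ± 0.16; edgeR adjusted p = 6.85e-05), and the rest were not called.

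Of 12 tested partners of ADP/ATP exchange, 4 rose and 0 fell in ChryM against Ctrl, 2 rose and 1 fell in Model against Ctrl, and 0 were called in ChryM against Model, with medians of 0.05, 0.09 and -0.06, beside 9.83%, 7.04% and 3.86% of all genes higher and 8.96%, 5.39% and 4.41% lower. The ATP synthase genes Atp5po, Atp5if1 and Atp5f1d were higher in ChryM by 0.53, 0.41 and 0.37, and Ckb, brain creatine kinase, by 0.21. Atp5f1d and Ckb were higher in Model by 0.35 and 0.28, where Atp5pb was lower by -0.50. Of 8 tested genes of biogenesis and dynamics, the fission genes Fis1 (0.42 ± 0.14; edgeR adjusted p = 0.0239) and Dnm1l (-0.59 ± 0.22; edgeR adjusted p = 0.0433) changed in opposite directions in ChryM against Ctrl, and 0 were called in the other comparisons.

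Markers of other cells moved with the same contrasts. Their counts stand beside the shares of all genes tested. These were 8.96% lower and 9.83% higher in ChryM against Ctrl, and 5.39% lower and 7.04% higher in Model against Ctrl. All 3 tested choroid plexus markers were lower in ChryM than in Ctrl, and their listed genes summed to 75.1 to 88.2 CPM in ChryM, 26.9 to 44.0 CPM in Model and 1762 to 1826 CPM in Ctrl. Erythroid markers summed to 108.1 to 143.2, 86.3 to 98.2 and 348.8 to 377.7 CPM in ChryM, Model and Ctrl, and meningeal markers to 143.3 to 196.3, 103.0 to 121.6 and 340.0 to 354.8 CPM. Myelin markers summed to 15129.5 to 16546.6 CPM in ChryM, 8555 to 9481 CPM in Model and 15671 to 16860.4 CPM in Ctrl, and 12 of 12 tested were lower in Model than in Ctrl. Some sums were lowest in ChryM, with few tested genes behind them. Of tested markers, 1 of 6 microglial and 1 of 5 interneuron markers were lower in ChryM than in Ctrl, and 0 higher. The interneuron median log2 fold change was 0.025. Only 1 endothelial and mural marker was tested, and it was lower. Single genes are no result about these cells. Microglial markers summed to 134.7 to 153.6 CPM in ChryM, 190.1 to 201.4 CPM in Model and 185.8 to 205.5 CPM in Ctrl. Endothelial and mural markers summed to 46.9 to 55.4, 62.1 to 81.5 and 85.3 to 110.2 CPM in ChryM, Model and Ctrl, and interneuron markers to 185.0 to 225.2, 243.3 to 292.2 and 240.7 to 269.0 CPM. Of 11 astrocyte markers 4 were lower and 1 higher in ChryM than in Ctrl, and of 9 excitatory neuron markers 3 were lower and 1 higher. Astrocyte markers summed to 1537 to 1561, 1567 to 1648 and 1664 to 1911 CPM in ChryM, Model and Ctrl, also lowest in ChryM. Excitatory neuron markers summed to 2496 to 2667, 2698 to 2813 and 2659 to 3008 CPM, with ChryM below Model and overlapping Ctrl. All hippocampal neuron and glial markers had counts. The part of these cells in the carrier values was not tested, and in bulk tissue fewer cells of a type and less RNA per cell cannot be told apart.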

How the data were processed

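Poly(A) RNA of rat hippocampus was sequenced in 9 libraries. The deposited table gives read counts per gene and FPKM side by side. HISAT2 and DESeq2 are named, without versions, in the submitters' processing notes, and no counting tool, genome build or annotation is given in them. Recomputing each deposited FPKM from its count, gene length and library total matched 100.0% of values (tolerance 1e-09). IDs without a name held 22.0% to 24.6% of the counts of a library and stayed in the totals.

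Counts were tested with edgeR 4.0.16 (R 4.3.3; filterByExpr, TMM factors, robust quasi-likelihood fit over 9 libraries and 3 groups, 6 residual degrees of freedom per gene, biological coefficient of variation 5.50%), after a check on simulated data. Low depth, with a median of 19 to 27 counts per tested gene, limits precision. All tested carriers are accounted for, and values by library are given for those called, the 5 of highest FPKM and the best measured of each role. Members and lists were chosen with earlier results of these data known. Alternatives used DESeq2 1.42.0, limma 3.58.1 on log2(FPKM + 1) and log2(FPKM + 0.1), other scalings, filters and left-out libraries. Gene neighbours came from RefSeq on GRCr8, which held all 50 members, and 3 pseudogene IDs were left out. Not every list gene is reported here by name.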

Additional observations from a re-analysis of the deposited data

How the results depend on the processing

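Carrier counts were 0, 0 and 2 called in ChryM against Model, Model against Ctrl and ChryM against Ctrl in all alternatives run, except with DESeq2, where 1 was called in ChryM against Ctrl. DESeq2 gave an adjusted p to 4461 genes there in place of 7073. With the replicate number as a block the counts were also 0, 0 and 2. Same-numbered libraries deviated with correlations of -0.03 to 0.04. At this depth counting noise could hide a pairing, so these values do not decide whether the numbers pair the libraries. The block called 586, 855 and 1317 of all genes, against 585, 879 and 1329 without it. DESeq2 called 262, 440 and 591 of all genes, and limma on log2(FPKM + 1) 360, 557 and 799, and on log2(FPKM + 0.1) 349, 509 and 762. Library totals moved the median of all genes in Model against Ctrl to -0.14.

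The log2 difference of the summed level moved to -0.21 in Model against Ctrl and -0.33 in ChryM against Ctrl without the 2 highest members, and to 0.012 in Model against Ctrl at TMM-scaled totals. Library totals gave 373 higher and 252 lower of all genes in ChryM against Model (273 and 312 with TMM), 276 and 655 in Model against Ctrl (498 and 381), and 520 and 819 in ChryM against Ctrl (695 and 634).

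Of the alternatives for single genes, 570 kept direction and call, 1 lost a call and 34 turned the sign of a gene that was not called. With library totals, log2(FPKM + 1) and log2(FPKM + 0.1), Model against Ctrl gave -0.052, -0.050 and -0.050 for Slc25a4, -0.039, -0.024 and -0.025 for Slc25a22, and -0.044, -0.10 and -0.11 for Slc25a11. In the same settings ChryM against Ctrl gave -0.047, -0.049 and -0.049 for Slc25a4, and ChryM against Model gave 0.0055, 0.00066 and 0.00065 for Slc25a4 and 0.025, 0.034 and 0.035 for Slc25a23. Slc25a5 was at 0.023 with library totals. With 1 library left out, ranges in Model against Ctrl were -0.0080 to 0.15 for Slc25a4, -0.21 to 0.32 for Slc25a11 and -0.29 to 0.071 for Slc25a28. In ChryM against Ctrl the range was -0.060 to 0.096 for Slc25a4. In ChryM against Model the ranges were -0.14 to 0.033 for Slc25a4, -0.13 to 0.096 for Slc25a23, -0.21 to 0.22 for Slc25a5, -0.43 to 0.11 for Slc25a12 and -0.16 to 0.32 for Slc25a38. The causes were not tested. Depth limits what could be seen: the 18 tested carriers had as few as 4 counts in a library.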
